A study of Homo sapiens with 9 samples.

Results

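The genes described here carry out MHC class I antigen presentation. They were 9 of the 38021 genes in the count table of the series and were chosen by name: the heavy chain genes HLA-B, HLA-C, HLA-E and HLA-F, the light chain gene B2M, the peptide transporter genes TAP1 and TAP2, the loading chaperone gene TAPBP and the coactivator gene NLRC5. All 9 had reads in every library and entered every test. RNA had been sequenced from 786O, an established line of human clear cell renal cell carcinoma (ccRCC) that lacks functional VHL, the factor that targets HIF2α for destruction. The cells carried 1 of 3 lentiviral short hairpin RNAs (shRNAs) in the pLKO.1 vector, namely shControl, shARNT or shBMAL1. Cells of every group were selected and then kept in puromycin, in DMEM with fetal bovine serum, and each group had 3 libraries that the labels call biological replicates, without saying whether they came from separate infections. ARNT and BMAL1 are related bHLH-PAS proteins that can pair with HIF2α, and the study asked what each contributes to HIF2α-driven expression. The groups differ by their hairpin, so an effect of the targeted gene and an effect particular to 1 hairpin sequence cannot be told apart here.

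In MHC class I presentation, peptides cut by the proteasome are pumped into the endoplasmic reticulum by the transporter that TAP1 and TAP2 form, and tapasin (TAPBP) holds an empty heavy chain bound to β2-microglobulin (B2M) beside that transporter until a peptide fits. The loaded complex moves to the cell surface, where T cells read the bound peptide and natural killer cells sense the complex itself. NLRC5 is drawn to a shared promoter module, the SXY module, by the RFX, CREB/ATF and NF-Y factors already on it, and interferon acts on many of the same genes through IRF factors. In kidney cancer these genes are known for their part in recognition of the tumour by T cells.

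The knockdowns changed different parts of this set. Under shARNT the heavy chain genes HLA-B, HLA-C and HLA-F, TAP1 and TAPBP were lower than under shControl. Under shBMAL1 the genes TAP1, TAP2, TAPBP and NLRC5 were lower and HLA-C was higher. TAP1 and TAPBP were lower in both, while HLA-E and B2M were called in neither. A gene was called at a DESeq2 adjusted p under 0.1, the threshold of the study. By that rule 5 of 9 members were called lower and 0 higher under shARNT, against 19% lower and 16.5% higher among the 15164 genes tested (35.4% in either direction). Under shBMAL1 4 were called lower and 1 higher, against 19.4% lower and 17.4% higher among 19036 genes (36.8% in either direction). In shBMAL1 against shARNT 4 were called lower and 4 higher, against 18% lower and 17.3% higher among 18181 genes (35.3% in either direction). The 8 calls of this last comparison became 5 without shARNT replicate 3 or shBMAL1 replicate 2 or at an adjusted p under 0.05, and its 4 higher calls became 2 in each of these settings and without shARNT replicate 2. With so many genes called in every comparison, 9 members are few to set against these shares.

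**Figure D1:**
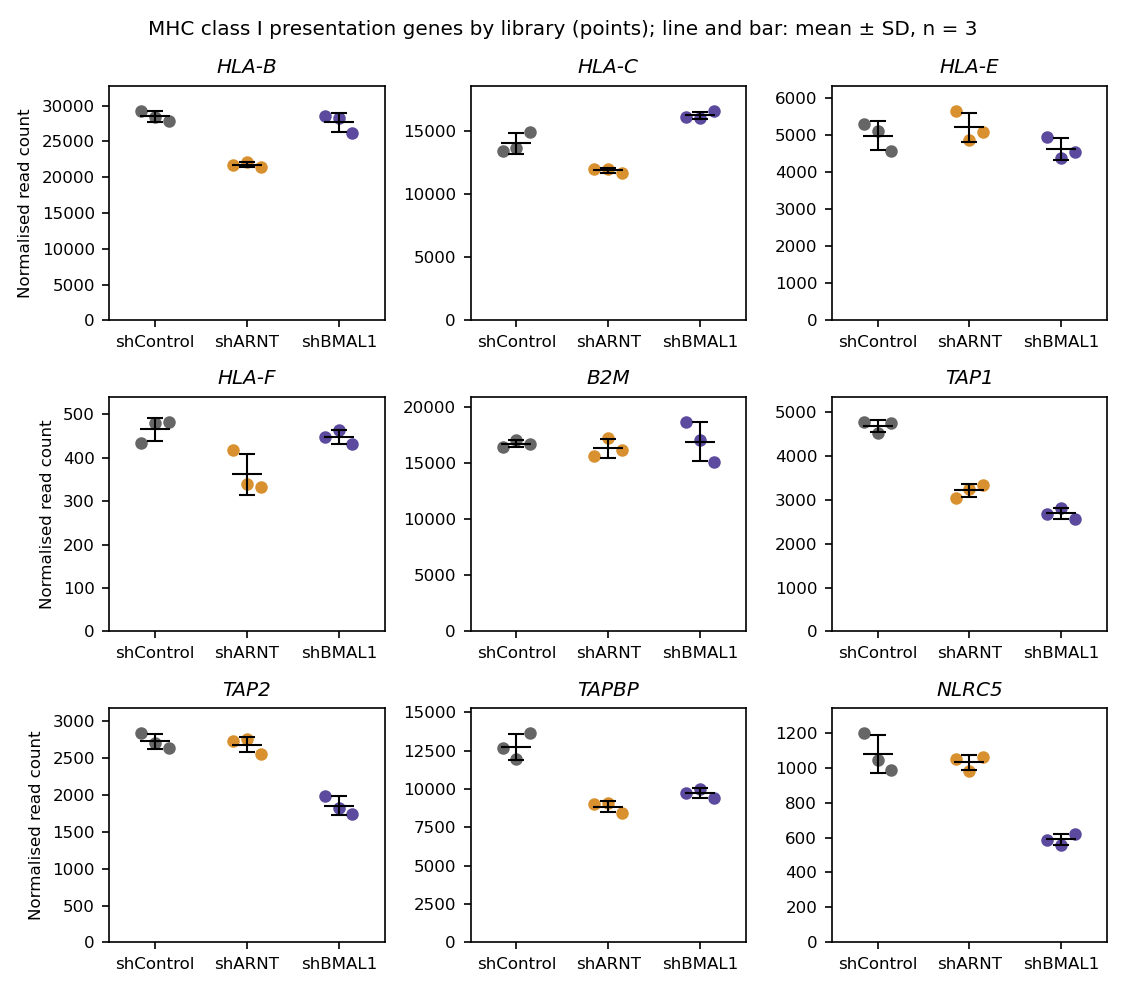
Normalised read count (counts divided by the library's size factor) of the 9 class I presentation genes. Each point is 1 library, the line is the group mean and the bar is the SD (n = 3), and every vertical axis starts at 0. TAP1 was lower in all libraries of both knockdowns, TAP2 and NLRC5 were lower in the shBMAL1 libraries and HLA-B was lower in the shARNT libraries.

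The libraries held 33793045 to 35444735 reads. The targeted genes followed the labels: ARNT had 2352 ± 184 normalised counts with shControl and 1225 ± 23.2 with shARNT, and BMAL1, listed as ARNTL, had 761 ± 32.0 with shControl and 326 ± 29.2 with shBMAL1 (SD, n = 3). Each target was also lower in the other knockdown: ARNT had 2014 ± 76.2 counts with shBMAL1 (adjusted p 0.0187) and ARNTL 633 ± 57.8 with shARNT (adjusted p 0.0294), in both cases without overlap with shControl. The renal marker PAX8 had 10004 ± 516 counts with shControl, 10031 ± 239 with shARNT and 7156 ± 387 with shBMAL1. The renal list of 8 genes summed to 44258 to 45572 counts with shControl, 60856 to 63080 with shARNT and 70678 to 72150 with shBMAL1, and the tubule marker LRP2 was at or near 0 throughout. The cadherin gene CDH6 rose from 13874 ± 521 counts to 27963 ± 1507 and 45692 ± 1964, and the other 7 genes summed to 30663 to 31115, 33848 to 34630 and 24209 to 27577 counts in the respective groups. Of the 7 genes of this list that were tested, 2 were called lower and 2 higher under shARNT, and under shBMAL1 PAX8 and KRT18 were called lower and CDH6, CA9 and PAX2 higher. Of 8 leukocyte markers, the pan-leukocyte gene PTPRC was at 0 in 8 of 9 libraries, CD3E, MS4A1 and LYZ were at 0 in all 9, and the whole list summed to between 5.04 and 30.0 counts per library. The class II gene HLA-DRA, which antigen-presenting leukocytes express, was also at 0 in all 9 libraries. Endothelial markers summed to 2.01 to 10.0 counts, and fibroblast markers to 232 to 289, 199 to 209 and 334 to 399 counts in the respective groups. In a bulk sample, fewer cells that express a gene and less RNA per cell cannot be told apart. Mitochondrial genes took 5.46% to 7.14% of reads with shControl, 7.59% to 8.74% in shARNT and 8.71% to 9.66% in shBMAL1, and whether this share or the marker sums have a part in the differences below was not tested.

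Of the 9 genes, 7 lie in the MHC region of chromosome 6 and the others on chromosomes 15 and 16, all annotated as protein coding. On GRCh38, in RefSeq, they occupy chr6:29723434-29738532 (HLA-F), chr6:30489509-30494194 (HLA-E), chr6:31268749-31272092 (HLA-C), chr6:31353875-31357179 (HLA-B), chr6:32821831-32838739 (TAP2), chr6:32845209-32853704 (TAP1), chr6:33299694-33314078 (TAPBP), chr15:44711517-44718145 (B2M) and chr16:56989557-57083520 (NLRC5). TAP1 is read from the minus strand, and its start site lies 488 bases from that of the immunoproteasome gene PSMB9, which is read from the plus strand in the opposite direction. Counts were whole numbers in all 9 libraries for every member but 2. TAP1 was fractional in 8 libraries and HLA-F in 7. In all of these libraries the fraction vanished on adding the count of the overlapping antisense gene, PSMB8-AS1 for TAP1 and HLA-F-AS1 for HLA-F (tolerance 0.01). PSMB8-AS1 held 12.4% to 15.2% of the TAP1 value and HLA-F-AS1 19.9% to 42.6% of the HLA-F value. Strand use in the counting is not given in the sources used here, so reads of these pairs may be divided between them. How reads that match several HLA genes were placed is likewise not given, and the heavy chain values are uncertain to that extent.

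The promoters are shown because members that moved together could be compared by the elements that NLRC5 and interferon factors are known to use. RefSeq promoter sequences (GRCh38.p14) were at hand for 7 members, those other than HLA-E and NLRC5, each as 300 bases around the start site. The 160 bases that end just before the start site are given 5′ to 3′ on the strand of the gene. They lie at chr6:31357180-31357339 for HLA-B, chr6:31272093-31272252 for HLA-C, chr6:32853705-32853864 for TAP1, chr6:32838740-32838899 for TAP2 and chr6:33314079-33314238 for TAPBP (all minus strand), and at chr6:29723274-29723433 for HLA-F and chr15:44711357-44711516 for B2M (plus strand). Capitals mark matches on either strand to GAAANNGAA, a core of the interferon-stimulated response element, to TGACG, the CRE core found in the X2 box of the SXY module, and to ATTGG, the inverted CCAAT of its Y box.
HLA-B: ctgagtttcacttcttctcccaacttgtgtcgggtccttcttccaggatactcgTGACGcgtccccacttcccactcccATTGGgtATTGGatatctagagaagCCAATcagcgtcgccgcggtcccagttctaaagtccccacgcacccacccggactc
HLA-C: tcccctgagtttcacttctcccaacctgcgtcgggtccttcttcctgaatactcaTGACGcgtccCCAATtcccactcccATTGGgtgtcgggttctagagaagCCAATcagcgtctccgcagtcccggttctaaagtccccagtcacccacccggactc
HLA-F: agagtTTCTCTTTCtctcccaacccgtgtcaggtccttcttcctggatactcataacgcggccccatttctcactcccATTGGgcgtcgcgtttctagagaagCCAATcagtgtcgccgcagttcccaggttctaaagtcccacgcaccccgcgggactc
B2M: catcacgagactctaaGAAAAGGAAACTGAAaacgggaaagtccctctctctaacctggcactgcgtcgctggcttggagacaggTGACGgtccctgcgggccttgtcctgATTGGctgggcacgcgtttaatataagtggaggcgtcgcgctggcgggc
TAP1: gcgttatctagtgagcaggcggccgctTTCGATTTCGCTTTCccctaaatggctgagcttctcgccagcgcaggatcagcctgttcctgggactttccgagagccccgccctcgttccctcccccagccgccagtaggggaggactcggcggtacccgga
TAP2: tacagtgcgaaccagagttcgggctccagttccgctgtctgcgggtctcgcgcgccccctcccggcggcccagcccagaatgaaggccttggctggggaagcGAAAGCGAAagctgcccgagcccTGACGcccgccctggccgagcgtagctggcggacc
TAPBP: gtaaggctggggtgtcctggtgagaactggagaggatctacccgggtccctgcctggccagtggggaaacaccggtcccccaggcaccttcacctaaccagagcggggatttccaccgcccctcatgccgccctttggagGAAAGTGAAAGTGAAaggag

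HLA-B and HLA-C, which are alike through most of this stretch, held TGACG 106 and 105 bases before the start site and ATTGG 81 and 80 bases before it. HLA-F held ATTGG 82 bases before the start site, a match to GAAANNGAA and no exact TGACG. B2M, which was called in no comparison, was the only one of the 7 with all 3 elements. It held an overlapping pair of GAAANNGAA matches, TGACG at 75 and ATTGG at 49 bases before the start site. TAP1 and TAPBP, the members called lower in both knockdowns, each held an overlapping pair of GAAANNGAA matches and no TGACG, and TAP2 held 1 such match and TGACG. Across the 300 bases, GAAANNGAA was found in 5 of 7 members and in 8.11% of 35116 RefSeq promoters of that length. TGACG was in 4 of 7 (24.6% of all promoters) and ATTGG in 5 of 7 (34.6%). The E-box CACGTG, to which BMAL1 with CLOCK binds, was in 0 of 7 (7.26%). Of the hypoxia response element cores, ACGTG, which lies within CACGTG, was in 0 of 7 (21.4%) and GCGTG in 4 of 7 (36.5%), namely HLA-B, HLA-F, B2M and TAP1. A match is an exact run of letters and not a shown binding site, and near variants were not sought. HLA-F, for example, reads taacg where HLA-B and HLA-C read TGACG. The search did not reach beyond these 300 bases, and whether any element has a part in the changes was not tested.

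**Figure D2:**
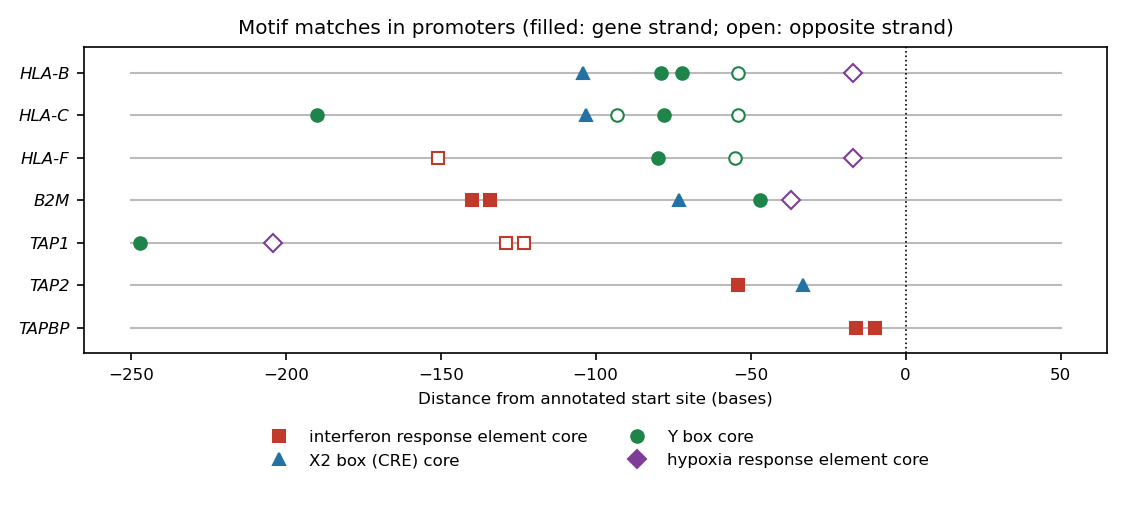
Matches to 4 of the promoter elements in the 300 bases around the start site of 7 members (horizontal axis, bases from the annotated start site; filled, gene strand; open, opposite strand). The TGACG matches of HLA-B and HLA-C sit at nearly the same position, and TAP1, TAPBP and B2M each show an overlapping pair of interferon element matches.

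Levels were compared between genes only as normalised counts per kilobase of a reference transcript of each gene (MANE Select, as annotated in GENCODE). In shControl, HLA-B (18543 ± 459 per kb) and B2M (17746 ± 345) stood highest, followed by HLA-C (9095 ± 517), TAPBP (3700 ± 247), HLA-E (1953 ± 149), TAP1 (1744 ± 50.2), TAP2 (483 ± 18.2), HLA-F (315 ± 18.1) and NLRC5 (159 ± 16.1; SD, n = 3). No neighbours in this order overlapped with shControl. The HLA-B level was 117 times the NLRC5 level per kb. The transporter chains were unequal, TAP1 lying 3.61 times above TAP2 per kb. In shARNT, B2M (17315 ± 877 per kb) came before HLA-B (14161 ± 251) and the libraries of the pair did not overlap. In shBMAL1, HLA-B (17999 ± 879) and B2M (17954 ± 1885) overlapped, as did TAP2 (328 ± 22.8) and HLA-F (303 ± 10.7). Transcript lengths are those of 1 annotated transcript per gene, which may not be the one these cells use.

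**Figure D3:**
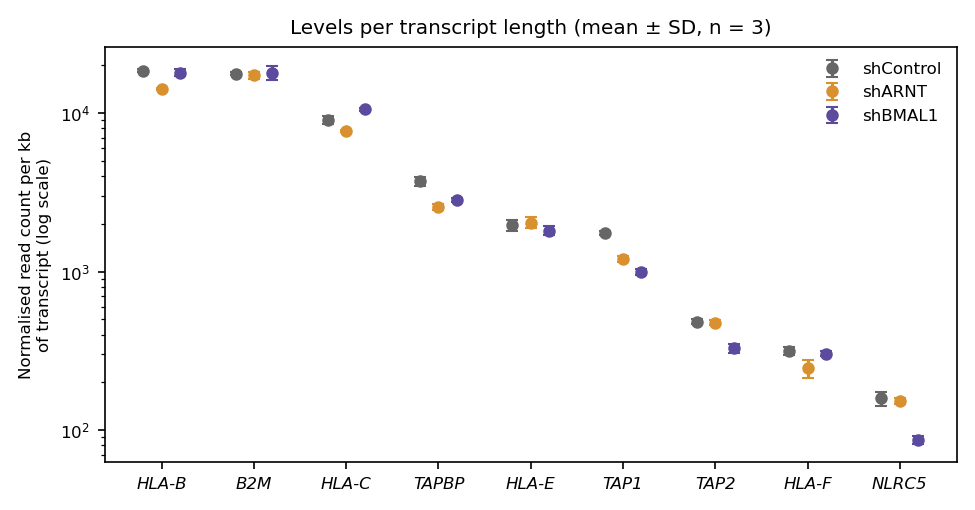
Mean normalised read count per kb of transcript (log scale) of the 9 members with shControl, shARNT and shBMAL1, with SD bars (n = 3). The genes are ordered by their shControl level, from HLA-B at 18543 to NLRC5 at 159 per kb, and the largest gaps between groups are those of NLRC5, TAP1 and TAP2.

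HLA-B, a classical heavy chain gene, had normalised counts of 29228, 28390 and 27828 in the shControl libraries, 21634, 22183 and 21438 with shARNT and 28602, 28236 and 26103 with shBMAL1. The shARNT libraries lay below all others, and the shControl and shBMAL1 libraries overlapped. HLA-B fell by 0.39 on the log2 scale under shARNT (SE 0.04, DESeq2 adjusted p 1.58e-16), to 0.765 of the shControl mean. Under shBMAL1 its change was −0.04 (95% interval −0.16 to 0.07, adjusted p 0.645). It was 0.34 higher with shBMAL1 than with shARNT (SE 0.06, adjusted p 1.11e-07).

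HLA-C, the other classical heavy chain gene, had counts of 13442, 13698 and 14934 with shControl, 12041, 11979 and 11656 with shARNT and 16113, 16046 and 16590 with shBMAL1. The 3 groups did not overlap, with shARNT lowest and shBMAL1 highest. HLA-C fell by 0.23 under shARNT (SE 0.05, adjusted p 7.04e-05) and rose by 0.21 under shBMAL1 (SE 0.06, adjusted p 0.00371), the only member called higher than shControl in either knockdown. The direct difference between the knockdowns was 0.45 (SE 0.06, adjusted p 3.17e-14). When all class I HLA rows of the table were added together, rows not described here included, which removes any division of reads among them, the sum fell by 0.28 under shARNT (adjusted p 4.66e-10) and changed by −0.02 under shBMAL1 (adjusted p 0.822).

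HLA-E, a nonclassical heavy chain gene whose product is seen by natural killer cell receptors, had counts of 5277, 5103 and 4549 with shControl, 5635, 4870 and 5082 with shARNT and 4944, 4385 and 4528 with shBMAL1. All 3 groups overlapped. Neither knockdown was called against shControl, at 0.07 for shARNT (95% interval −0.07 to 0.20, adjusted p 0.539) and −0.11 with shBMAL1 (−0.26 to 0.04, adjusted p 0.307). Without shBMAL1 replicate 1 the latter became −0.16 (adjusted p 0.0919). The direct comparison called HLA-E lower with shBMAL1 by 0.17 on the log2 scale (adjusted p 0.0736). That call was lost without shARNT replicate 1 (adjusted p 0.359), shARNT replicate 3 (0.112), shBMAL1 replicate 2 (0.261) or shBMAL1 replicate 3 (0.179).

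HLA-F, another nonclassical heavy chain gene and the least abundant of the 4, had counts of 435, 480 and 482 with shControl, 417, 339 and 332 with shARNT and 449, 464 and 432 with shBMAL1. The shARNT libraries lay below all others, narrowly so for replicate 1. HLA-F fell by 0.36 under shARNT (SE 0.12, adjusted p 0.0170). This call was lost without shARNT replicate 2 (adjusted p 0.114) or replicate 3 (0.129). Under shBMAL1 the change was −0.06 (95% interval −0.28 to 0.17, adjusted p 0.772). The antisense gene HLA-F-AS1 was lower in both knockdowns (−0.95 under shARNT, adjusted p 4.31e-05; −0.79 under shBMAL1, adjusted p 0.000525). With HLA-F and HLA-F-AS1 added together, the change under shARNT was −0.50 (adjusted p 4.75e-05) and that under shBMAL1 became −0.23 (adjusted p 0.0896). The direct comparison placed HLA-F 0.30 higher with shBMAL1 (adjusted p 0.0571), a call lost without shARNT replicate 2 (adjusted p 0.231), shARNT replicate 3 (0.253), shBMAL1 replicate 1 (0.115) or shBMAL1 replicate 2 (0.177).

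B2M encodes the light chain that pairs with class I heavy chains. Its counts were 16403, 17053 and 16747 with shControl, 15616, 17234 and 16134 with shARNT and 18659, 17025 and 15108 with shBMAL1, and all groups overlapped. No change was called under shARNT (−0.03, 95% interval −0.13 to 0.07, adjusted p 0.700) or shBMAL1 (0.01, −0.13 to 0.16, adjusted p 0.920), nor between the knockdowns (0.05, −0.10 to 0.20, adjusted p 0.693). These intervals leave room for differences of up to 0.20 on the log2 scale. Within a library, the ratio of B2M to HLA-B reads was 0.588 ± 0.023 with shControl, 0.750 ± 0.028 with shARNT and 0.611 ± 0.038 with shBMAL1 (SD, n = 3). The shARNT ratios lay above all others.

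TAP1, which codes for 1 of the paired chains of the peptide transporter, had counts of 4766, 4527 and 4755 with shControl, 3047, 3254 and 3336 with shARNT and 2683, 2808 and 2568 with shBMAL1. The 3 groups did not overlap, with shControl highest and shBMAL1 lowest. TAP1 fell by 0.54 under shARNT (SE 0.06, adjusted p 5.92e-19) and by 0.80 under shBMAL1 (SE 0.07, adjusted p 1.32e-30), to 0.687 and 0.573 of the shControl mean. It was lower with shBMAL1 than with shARNT by 0.26 (SE 0.07, adjusted p 0.00172). Leaving out any 1 library kept these values between −0.57 and −0.50, between −0.83 and −0.77 and between −0.30 and −0.23, all called. The antisense gene PSMB8-AS1, which may hold reads of TAP1, was lower too (−0.30 under shARNT, adjusted p 0.0137; −0.60 under shBMAL1, adjusted p 2.59e-06), and the sum of the pair changed by −0.51 and −0.78.

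TAP2, which codes for the other chain, moved in only 1 of the knockdowns. Its counts were 2840, 2699 and 2639 with shControl, 2729, 2758 and 2562 with shARNT and 1992, 1825 and 1738 with shBMAL1. The shBMAL1 libraries lay below all others, while shControl and shARNT overlapped. TAP2 fell by 0.56 under shBMAL1 (SE 0.08, adjusted p 1.04e-11), whereas under shARNT the change was −0.02 (95% interval −0.14 to 0.10, adjusted p 0.862). The test of shBMAL1 against shARNT gave −0.54 (SE 0.08, adjusted p 8.54e-11). The ratio of TAP1 to TAP2 reads within a library was 1.72 ± 0.071 with shControl, 1.20 ± 0.094 with shARNT and 1.45 ± 0.098 with shBMAL1 (SD, n = 3), and the 3 groups did not overlap. The ratio was lowest under shARNT, where TAP1 was lower and TAP2 was not called.

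TAPBP encodes tapasin, the bridge between the transporter and the heavy chain. Its counts were 12683, 11956 and 13653 with shControl, 9006, 9092 and 8440 with shARNT and 9764, 10039 and 9420 with shBMAL1. Both knockdowns lay wholly below shControl, and shARNT lay wholly below shBMAL1. TAPBP fell by 0.53 under shARNT (SE 0.06, adjusted p 6.91e-18) and by 0.39 under shBMAL1 (SE 0.07, adjusted p 5.65e-08). The direct difference of 0.14 (SE 0.06, adjusted p 0.0783) was lost with any 1 of the shARNT libraries left out (adjusted p 0.139, 0.118 and 0.329 for replicates 1, 2 and 3), without shBMAL1 replicate 2 (0.240) and without independent filtering (0.106).

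NLRC5, the coactivator of class I genes, had counts of 1197, 1045 and 987 with shControl, 1050, 981 and 1061 with shARNT and 588, 558 and 622 with shBMAL1. The shBMAL1 libraries lay far below the others, and shControl and shARNT overlapped. NLRC5 fell by 0.87 under shBMAL1 (SE 0.10, adjusted p 1.49e-15), to 0.547 of the shControl mean and the largest fall of any member. Under shARNT its change was −0.06 (95% interval −0.23 to 0.11, adjusted p 0.684), and the knockdowns differed by −0.81 (SE 0.10, adjusted p 8.57e-16).

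**Figure D4:**
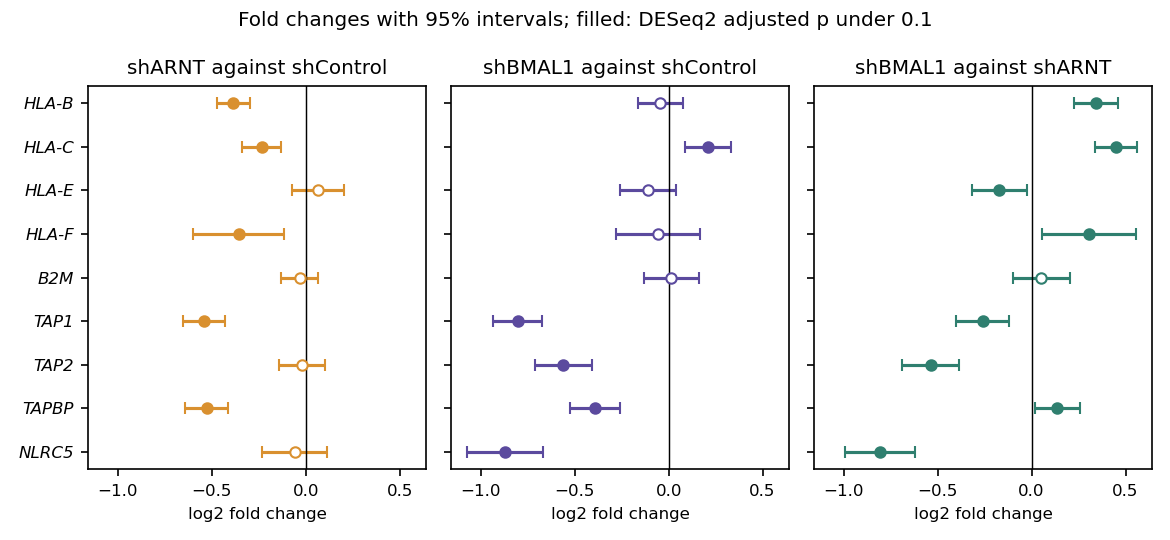
Log2 fold change of each member (DESeq2) with its 95% interval in the 3 comparisons, with filled points for an adjusted p under 0.1. The intervals of TAP1 and TAPBP lie left of 0 in both knockdowns, those of TAP2 and NLRC5 do so in the comparisons that include shBMAL1 and span 0 for shARNT against shControl, and the B2M intervals span 0 throughout.

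Counted without a test, the libraries of shARNT lay wholly below shControl for 5 members and wholly above for 0, against 23% and 20.9% of the genes tested. For shBMAL1 against shControl 4 members lay wholly below and 1 wholly above (22.9% and 22.3% of genes), and for shBMAL1 against shARNT 3 below and 4 above (21.7% and 22.2%). The median log2 fold change of the 9 members was −0.23 under shARNT and −0.11 under shBMAL1, where the median of all genes tested was 0.0028 and 0.015. In the direct comparison it was 0.05, against 0.0094 for all genes. Both knockdowns were set against the same 3 shControl libraries, so their values are not independent of each other.

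The genes around this set were counted from lists of the pathway. For every list, the shares over all genes tested were 19% lower and 16.5% higher under shARNT. Under shBMAL1 they were 19.4% lower and 17.4% higher, and the lists are short to set against these shares. Among 10 peptide loading and trimming genes, 5 were called lower and 1 higher under shARNT, and 2 lower and 5 higher under shBMAL1 (median −0.14 and 0.08). TAPBPL, a tapasin-related editor of bound peptides, had 755 ± 51.5 counts with shControl, 477 ± 28.2 with shARNT and 1109 ± 64.1 with shBMAL1. It fell by 0.66 under shARNT (adjusted p 1.72e-09) and rose by 0.55 under shBMAL1 (adjusted p 7.95e-08), and the knockdowns differed by 1.21 (adjusted p 1.06e-32). PDIA3, the disulphide isomerase of the loading complex, likewise fell by 0.18 under shARNT (adjusted p 0.00181) and rose by 0.36 under shBMAL1 (adjusted p 1.26e-05), and the knockdowns differed by 0.54 (adjusted p 1.81e-12). The chaperone CALR fell by 0.37 under shARNT (adjusted p 1.59e-08) and rose by 0.17 under shBMAL1 (adjusted p 0.0739), the latter call being lost with 3 of the 6 libraries left out in turn. Of the peptidases, THOP1 (−0.25, adjusted p 0.00480) and ERAP2 (−0.20, adjusted p 0.0103) fell under shBMAL1, whereas ERAP1 (0.18, adjusted p 0.0318) and TPP2 (0.14, adjusted p 0.0906) rose. The TPP2 call was lost with 5 of the 6 libraries left out in turn. CANX, the chaperone of new heavy chains, was called only between the knockdowns (−0.18 in shBMAL1 against shARNT, adjusted p 0.00770).

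Of 7 immunoproteasome and activator genes, 4 were called lower and 1 higher under shARNT, and 5 lower and 0 higher under shBMAL1 (median −0.17 and −0.25). PSMB9, the catalytic subunit that shares an intergenic stretch with TAP1, had 1042 ± 55.3 counts with shControl, 835 ± 57.0 with shARNT and 744 ± 86.7 with shBMAL1. It fell by 0.32 under shARNT (adjusted p 0.00170) and by 0.49 under shBMAL1 (adjusted p 2.22e-05), and the ratio of TAP1 to PSMB9 reads was 4.50 ± 0.34 with shControl, 3.86 ± 0.24 with shARNT and 3.63 ± 0.35 with shBMAL1 (SD, n = 3). Both knockdowns lay wholly below shControl in this ratio. PSME2, a subunit of the interferon-induced activator, fell in both (−0.27, adjusted p 0.000745; −0.35, adjusted p 0.000208), and its partner PSME1 fell under shARNT (−0.35, adjusted p 5.62e-06). PSME3, which forms a nuclear activator, rose by 0.26 under shARNT (adjusted p 6.95e-06) and fell by 0.36 under shBMAL1 (adjusted p 1.86e-07), and the knockdowns differed by −0.62 (adjusted p 5.74e-19). POMP, the assembly factor, fell under shBMAL1 (−0.25, adjusted p 0.00293). Of the 3 constitutive catalytic subunits that immunoproteasome subunits replace, 0 were called lower and 1 higher under shARNT, and 2 lower and 0 higher under shBMAL1, led by PSMB7 (−0.54, adjusted p 3.77e-12). The higher call is that of PSMB6, which was lost with 4 of the 6 libraries left out in turn.

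Among 15 interferon and NF-κB input genes, 8 were called lower and 2 higher under shARNT, and 6 lower and 3 higher under shBMAL1 (median −0.14 and −0.20). IRF9, the DNA-binding part of the interferon factor ISGF3, had 1292 ± 81.7 counts with shControl, 714 ± 68.6 with shARNT and 748 ± 66.2 with shBMAL1. It fell by 0.85 (adjusted p 4.64e-19) and 0.79 (adjusted p 8.34e-15), the most of the genes called in this list. NFKB1 fell in both as well (−0.30, adjusted p 1.20e-05; −0.46, adjusted p 9.72e-09), and RELA under shBMAL1 (−0.31, adjusted p 0.000263). Of 11 partners of NLRC5 on the SXY module, 2 were called lower and 3 higher under shARNT, and 2 lower and 2 higher under shBMAL1 (median 0.10 and 0.11). RFX5, a DNA-binding subunit of the RFX complex, rose by 0.29 under shARNT (adjusted p 0.00223), fell by 0.22 under shBMAL1 (adjusted p 0.0783, a call lost with 3 of the 6 libraries left out in turn) and was 0.50 lower on the log2 scale with shBMAL1 than with shARNT (adjusted p 5.03e-06). Under shARNT CREB1 (−0.18, adjusted p 0.0261) and NFYC (−0.16, adjusted p 0.0818) were also called lower and CREBBP (0.22, adjusted p 0.00812) higher. Under shBMAL1 NFYB (−0.29, adjusted p 0.0277) was called lower, and KAT2B (0.29, adjusted p 0.00693) and NFYC (0.20, adjusted p 0.0760) higher. The NFYC calls were lost with 6 and 3 of the 6 libraries left out in turn, and those of NFYB, CREB1 and CREBBP with 3, 2 and 1.

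**Figure D5:**
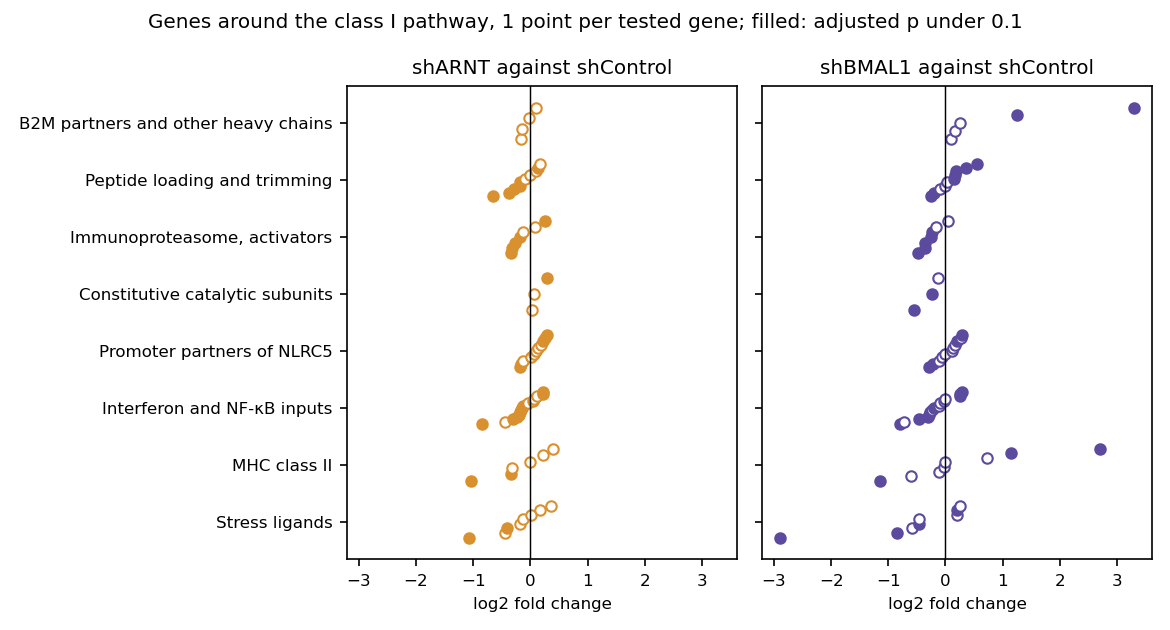
Log2 fold change against shControl of the tested genes of 8 lists around the class I pathway (1 point per gene; filled, DESeq2 adjusted p under 0.1). IRF9 is the lowest filled point of the interferon list in both panels, at −0.85 and −0.79, and the points at 1.15 and 2.69 in the class II list under shBMAL1 are HLA-DMA and HLA-DMB.

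Families with related functions were counted in the same way. Of 5 further heavy chain genes and B2M partners, 0 were called under shARNT (4 tested) and 2 were called higher under shBMAL1 (median of the tested genes −0.08 and 0.25). One of these is CD1D, which had 0.671 ± 1.16 counts with shControl and 6.62 ± 1.48 with shBMAL1, and its call was lost on leaving out any 1 of the 6 libraries. FCGRT, the heavy chain of the neonatal Fc receptor, rose by 1.24 under shBMAL1 (adjusted p 5.09e-10), from 121 ± 24.2 to 287 ± 40.6 counts. HLA-G, whose reads may be confused with those of other heavy chains, was not called in either (−0.15, adjusted p 0.631; 0.09, adjusted p 0.771). Of 14 class II genes, only 6 were tested under shARNT, with 2 lower, and 8 under shBMAL1, with 1 lower and 2 higher (median −0.16 and −0.02). HLA-DMB, which edits class II peptides, had 45.9 ± 15.3 counts with shControl, 45.5 ± 10.9 with shARNT and 297 ± 22.5 with shBMAL1, a rise of 2.69 under shBMAL1 (adjusted p 1.77e-33). Its partner HLA-DMA rose by 1.15 under shBMAL1 (adjusted p 5.82e-08), the invariant chain gene CD74 fell by 1.03 under shARNT (adjusted p 1.73e-09) and the protease gene CTSS fell in both (−0.35, adjusted p 0.00544; −1.14, adjusted p 1.62e-17). Of 8 stress ligand genes with a class I fold, 2 were called lower under shARNT, and 3 lower and 1 higher under shBMAL1 (median −0.16 and −0.46). ULBP2, a ligand of the killer cell receptor NKG2D, fell in both (−0.41, adjusted p 9.52e-05; −0.84, adjusted p 4.19e-13), while ULBP1 fell under shARNT (−1.08, adjusted p 6.37e-09). MICA, the gene called higher under shBMAL1, had 1337 ± 91.9 counts with shControl, 1225 ± 24.8 with shARNT and 1536 ± 52.7 with shBMAL1. That call was lost with 3 of the 6 libraries left out in turn. In shBMAL1 against shARNT, ULBP1 and MICA were called higher and ULBP2 and RAET1E lower.

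Across the 9 libraries, the genes whose levels ran most like those of 4 members were sought among 11823 genes whose mean normalised count was 100 or more, by Pearson's r of log2(normalised count + 1). The 9 libraries come from 3 groups and share those group differences, so each r is given as a description. For TAP1 the nearest were C11orf68 (r = 0.993), MX2 (0.993) and USP18 (0.988), and MX2 and USP18 are interferon-induced genes. MX2 had mean counts of 284 with shControl, 49.2 with shARNT and 26.5 with shBMAL1, in the same order as TAP1. For NLRC5 they were TGFBR1 (0.991), SAMD8 (0.989) and COL5A2 (0.989), and COL5A2 had 623, 590 and 240 counts. For HLA-B, PTGES (0.988) and DYSF (0.985) stood nearest among the rows that carry a gene symbol, with PTGES at 779, 160 and 545 counts. For B2M, which was called in no comparison, the nearest were NUP62 (0.956), GLT8D1 (0.914) and MEF2C (0.913).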

How the data were processed

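The authors deposited 1 table of estimated counts, in linear total reads per gene, for 9 libraries. Per the study's methods, paired-end reads were aligned with SeqMan NGen 17 and exported from ArrayStar 17 against GRCh37, whereas the submitters' processing notes list STAR, DESeq2 and hg38. The order of the rows followed GRCh38 for 2079 gene pairs and GRCh37 for 7, so RefSeq positions on GRCh38 are given. The gene annotation is not given in the sources used here.

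A value of 0.009, which stood for 0 in 46.3% of cells, was set to 0. Fractional values (6.14% of the rest) were rounded, and 53 rows that share a name with another row were added to it. Each comparison was fitted in DESeq2 1.42.0 (R 4.3.3) on its 6 libraries by the two-sided Wald test, with size factors from medians of ratios, independent filtering at 0.1 and Benjamini-Hochberg adjustment over all genes tested. The fits were checked on simulated data. Normalised counts use size factors over all 9 libraries. Replicates within a group differed beyond sampling noise (chi-square per degree of freedom 7.60 to 17.6).

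The 9 members and the gene lists were chosen with earlier results of these data known. Named in the text are all members, the targeted genes, up to 2 called genes per list, direction and comparison with the smallest adjusted p, neighbours that may share reads, and the 3 genes most like each of 4 members. Exceptions chosen after their values were seen are PAX8, KRT18, CDH6, CA9, PAX2, LRP2, ERAP1, PTPRC, CD3E, MS4A1, LYZ and HLA-DRA. Some genes of the lists are not reported here. Alternatives were edgeR 4.0.16, TMM size factors, only genes with 10 or more counts in 3 or more libraries, no independent filtering, an adjusted p under 0.05, 1 fit of all libraries, a replicate block, leaving out each library, summed class I HLA genes and, chosen after the data were seen, the antisense genes added to TAP1 and HLA-F.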

Additional observations from a re-analysis of the deposited data

How the results depend on the processing

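The count of members called was 5 under shARNT (4 to 5 with 1 library left out) and 5 under shBMAL1 (5 to 6), and was within 1.5 times of these values in all alternatives run. In shBMAL1 against shARNT it was 8, with 5 at an adjusted p under 0.05 and 5 to 7 with 1 library left out. Of these, 4 were higher, with 2 at an adjusted p under 0.05 and 2 to 4 with 1 library left out. The calls at stake are those of HLA-E, HLA-F and TAPBP, which rest on small differences near the threshold. Directions turned only for values near 0 or under summing. With all class I HLA rows added together, rows not described here included, HLA-E went to −0.28 under shARNT and to 0.26 in the direct comparison, and HLA-C to −0.021 under shBMAL1, since the sum is then a single value for all of them. With 1 library left out, TAP2 under shARNT ranged from −0.043 to 0.014, above 0 without shControl replicate 1 or shARNT replicate 3, and NLRC5 under shARNT from −0.12 to 0.023, above 0 without shControl replicate 1. B2M ranged from −0.061 to 0.091 under shBMAL1, below 0 without shControl replicate 1 or shBMAL1 replicate 1, and from −0.023 to 0.13 in the direct comparison, below 0 without shBMAL1 replicate 1. Over all alternatives, 375 member values kept their direction and their side of the threshold, 19 lost a call, 2 gained one and 9 turned.

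The replicate numbers of the labels did not pair the libraries: deviations from the group means correlated between −0.154 and 0.105 for the same number. With the replicate block, 5, 5 and 7 members were called, the loss being HLA-F in shBMAL1 against shARNT (0.31, adjusted p 0.122), and the genes called went from 5374 to 4150, from 7005 to 5742 and from 6409 to 5388. Of 81 calls of the other genes named by the rule, 21 were lost with at least 1 library left out and 0 turned. Those of CD1D, NFYC, TPP2, JAK2, HFE and KAT2B were lost with 5 or 6 of the 6 libraries left out in turn in at least 1 comparison, and those of CALR, IFNAR1, IFNGR1, IFNGR2, MICA, NFYB, PSMB6 and RFX5 with 3 or 4, so the list counts that hold them are less firm. HLA-F had the fewest counts and the widest error of the members, and 3 libraries per group limit what any p value covers.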
